A study of Mus musculus with 6 samples.

Results

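The genes of mouse chromosome 9 that were expressed in mammary tumors were followed across 6 tumors. Members were selected on position and level, as Ensembl gene IDs on chromosome 9 (GRCm38, GENCODE release M21) with a mean of at least 0.5 FPKM over the tumors. FPKM counts the fragments on a gene relative to the length of its exons and to the size of the library. Of 2853 chromosome 9 IDs in the files, 1594 were above 0 in at least 1 tumor and 798 were members, among 15069 genes in all at that level. The members just inside the limit were Ncam1 (0.501 FPKM), Dock3 (0.503 FPKM) and Gm27002 (0.506 FPKM), and Scarna9 (0.499 FPKM), Trim29 (0.491 FPKM) and P4htm (0.488 FPKM) lay just outside it. The chromosome itself was chosen because its genes were known to be lower after anti-PD-1 in these tumors. The size of that shift, and every count of members that were lower, is therefore a description with no test.

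RNAseq compared tumors of NeuT/ATTAC mice given anti-PD-1 mAb (3 tumors) with tumors of mice given a matching isotype IgG (3 tumors), 1 library per tumor. Both groups carried the MMTV-NeuT transgene, in which the mouse mammary tumor virus promoter drives Erbb2 in mammary epithelium of the FVB strain. They also carried FAT-ATTAC, a transgene that came from C57BL/6 mice and was crossed into FVB, with which AP20187 removes fat cells and brings about mammary fibrosis. Every mouse received 0.4 mg/kg AP20187 by intraperitoneal injection from 6 weeks of age, biweekly in the labels and triweekly in the study's methods, and 100 μg of antibody 2 times weekly from 8 weeks of age. The study's methods give 4 months of antibody treatment, but not the age at which each tumor was taken. A legend of the study describes pooled RNA, whereas the files hold 6 separate profiles, no pair of them identical, and whether the 3 tumors of a group came from 3 mice is not stated. Nothing in the labels gives a litter, a batch or a sequencing date.

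A cell usually carries 2 copies of each autosome, and the RNA of many genes follows the number of copies. Carcinomas often gain or lose whole chromosomes or long stretches of them, so that neighbouring genes with unrelated functions move together. Some genes are buffered against such changes by feedback on their transcription or their RNA, and others are called dosage-sensitive because losing 1 copy already has a phenotype. Mouse chromosome 9 holds segments that correspond to parts of human chromosomes 3, 6, 11, 15 and 19. It carries the DNA damage kinases Atm and Atr, the histone methyltransferases Kmt2a and Setd2, the TGF-beta receptor Tgfbr2, the Wnt effector Ctnnb1 and a cluster of inflammatory caspase genes. The number of DNA copies was not measured here, and in bulk tumors fewer cells of a type and less RNA per cell cannot be told apart.

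The promoters of 6 members are printed because these genes mark the ends of the pattern described below. Casp4 (chr9:5308599-5308848, plus strand) and Car12 (chr9:66713436-66713685, plus strand) had among the lowest fold changes. Hexa (chr9:59539290-59539539, plus strand) and Me1 (chr9:86695915-86696164, minus strand) had among the highest. Ubp1 (chr9:113930898-113931147, plus strand) and Clpx (chr9:65294010-65294259, plus strand) were among the 5 members most like the whole chromosome over the tumors. Each window holds the 250 bases before the gene's start in RefSeq (GRCm38.p6), 5′ to 3′ on the gene's strand. Capitals mark 4 motifs, each searched on both strands, which are a TATA box with the letters TATAAA, a GC box with the letters GGGCGG, the CCAAT box of exactly these 5 letters, and an E-box with the letters CACGTG. Their matches did not overlap each other in these windows.
Casp4: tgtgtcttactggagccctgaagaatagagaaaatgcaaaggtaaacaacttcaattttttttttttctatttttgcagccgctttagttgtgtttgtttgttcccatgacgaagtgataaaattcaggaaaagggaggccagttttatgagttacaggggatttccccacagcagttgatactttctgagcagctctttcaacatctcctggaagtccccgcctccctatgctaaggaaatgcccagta
Car12: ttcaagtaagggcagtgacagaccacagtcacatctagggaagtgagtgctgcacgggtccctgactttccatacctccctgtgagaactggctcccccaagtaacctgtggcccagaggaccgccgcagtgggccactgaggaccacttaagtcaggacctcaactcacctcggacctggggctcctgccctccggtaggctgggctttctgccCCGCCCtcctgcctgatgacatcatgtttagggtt
Hexa: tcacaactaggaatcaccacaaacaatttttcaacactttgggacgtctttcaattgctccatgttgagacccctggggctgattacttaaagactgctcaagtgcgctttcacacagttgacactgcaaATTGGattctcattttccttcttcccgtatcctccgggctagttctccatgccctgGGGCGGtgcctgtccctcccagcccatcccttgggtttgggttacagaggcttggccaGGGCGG
Me1: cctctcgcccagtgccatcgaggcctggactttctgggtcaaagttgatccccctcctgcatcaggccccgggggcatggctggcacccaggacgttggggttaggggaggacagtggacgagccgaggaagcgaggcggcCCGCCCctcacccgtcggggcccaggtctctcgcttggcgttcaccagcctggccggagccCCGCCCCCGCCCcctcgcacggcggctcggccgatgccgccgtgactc
Ubp1: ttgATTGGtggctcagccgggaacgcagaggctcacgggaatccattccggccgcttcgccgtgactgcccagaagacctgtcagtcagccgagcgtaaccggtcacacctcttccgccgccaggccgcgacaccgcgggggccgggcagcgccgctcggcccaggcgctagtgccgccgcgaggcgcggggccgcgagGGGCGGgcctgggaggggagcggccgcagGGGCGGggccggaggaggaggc
Clpx: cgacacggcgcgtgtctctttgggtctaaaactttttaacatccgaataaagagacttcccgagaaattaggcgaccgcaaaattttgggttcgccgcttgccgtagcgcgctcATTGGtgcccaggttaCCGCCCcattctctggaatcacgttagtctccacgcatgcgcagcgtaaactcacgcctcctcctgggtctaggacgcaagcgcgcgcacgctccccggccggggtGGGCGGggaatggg
These windows differed in composition, from 41.6% GC with 3 CpG in Casp4 to 75.2% GC with 33 CpG in Ubp1. All but Casp4 held a GC box, Hexa, Ubp1 and Clpx also held a CCAAT box, and none held TATAAA or the E-box. RefSeq promoters were matched for 591 of the 798 members. A GC box was in 62.9% of them and in 58.8% of 9722 promoters of tested genes on other chromosomes. The CCAAT box was in 36.7% and 36.2%, TATAAA in 6.43% and 6.50%, and the E-box in 8.46% and 8.23%. The median GC content was 59.6% in both sets. These matches describe the letters of the windows and not binding.

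The files give no read counts. In each tumor, 97.0% to 97.3% of detected values of FPKM times exon length were whole multiples of 1 read's worth, within 0.1 reads. On that scale the library size implied by the FPKM came to between 22009893 and 25596232 per tumor. The reads recovered over all genes summed to more than this size in every tumor but IgG replicate 3. It is thus a size for scaling and not a count of reads. The deposited FPKM shared 1 overall level, with median-of-ratios factors between 0.996 and 1.00. Whether they were scaled to that level beforehand is not given in the sources used here. Luminal epithelial markers, which include Krt8, Krt18, Epcam, Csn3 and Erbb2, were abundant in every library. Their summed level was 3546 to 8087 FPKM in IgG and 4368 to 6894 FPKM in anti-PD-1 tumors. Csn3 is a milk protein gene and Erbb2 the gene driven by the transgene, so this sum does not measure epithelial content alone. All 8 macrophage markers had a higher mean log2 value in anti-PD-1 tumors, 1 of them with an unadjusted p under 0.05 in limma. Their sums were 351 to 548 FPKM in IgG and 374 to 741 FPKM in anti-PD-1 tumors. All 6 skeletal muscle markers and all 3 tested neutrophil markers were higher as well, but only 4 of 8 fibroblast and 1 of 6 endothelial markers. The sum over 8 T cell markers lay between 1.18 and 4.87 FPKM in every tumor, and the chromosome 9 genes Cd3e, Cd3d and Cd3g were under the limit for members. Fibroblast markers summed to 242, 81.8 and 112 FPKM in IgG and 345, 93.6 and 207 FPKM in anti-PD-1 tumors, with replicate 1 highest in both groups. Red blood cell markers summed to 224, 85.7 and 278 FPKM in IgG and 723, 40.1 and 68.9 FPKM in anti-PD-1 tumors. The sum of mt-Co1, mt-Nd1, mt-Cytb, Malat1 and Neat1, read as signs of RNA quality, was 11114 to 22441 FPKM in IgG and 10955 to 16261 FPKM in anti-PD-1 tumors. Skeletal muscle markers summed to 2.51, 141 and 6.18 FPKM in IgG and 79.2, 153 and 1.45 FPKM in anti-PD-1 tumors. The part of these cell types and of RNA quality in the results below was not tested.

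The level of chromosome 9 in a tumor was taken as the median over members of log2(FPKM + 1) relative to the gene's 6-tumor mean, minus the same median over the other autosomes. IgG replicates 1, 2 and 3 had levels of -0.13, 0.34 and 0.35, and anti-PD-1 replicates 1, 2 and 3 had levels of -0.05, -0.27 and -0.27. IgG replicates 2 and 3 thus stood high, anti-PD-1 replicates 2 and 3 stood low, and IgG replicate 1 lay below anti-PD-1 replicate 1, so that the groups overlapped. The highest and lowest tumor were 0.62 apart, which is 1.54-fold. The share of members above 0 was 80.8% in IgG replicate 2, 82.5% in IgG replicate 3, 42.7% in anti-PD-1 replicate 1, 27.7% in IgG replicate 1, 22.2% in anti-PD-1 replicate 3 and 17.7% in anti-PD-1 replicate 2. IgG replicates 2 and 3 were the 2 highest tumors for 434 of the 798 members (54.4%), against 12.5% of 14257 tested genes elsewhere. Below, values are listed in the order of replicates 1 to 3 of each group.

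**Figure D1:**
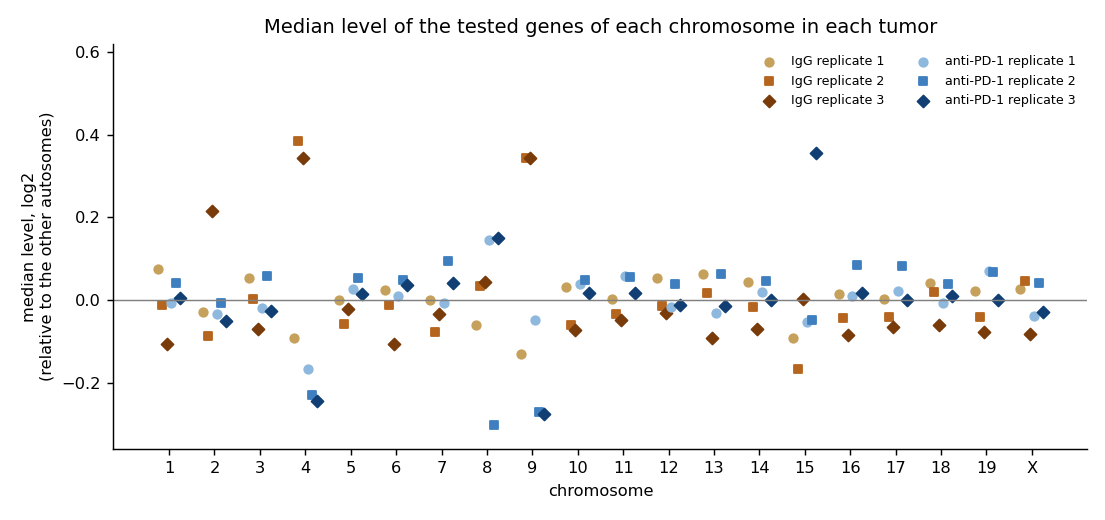
Each point is the median level of the tested genes of a chromosome in 1 tumor, on a log2 scale relative to the gene's 6-tumor mean and to the other autosomes. On chromosome 9 the points of IgG replicates 2 and 3 lie at 0.34 and 0.35 and those of anti-PD-1 replicates 2 and 3 at -0.27. On chromosome 4 all 3 anti-PD-1 tumors lie below the 3 IgG tumors.

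Fold changes are differences of group means of log2(FPKM + 1), anti-PD-1 minus IgG, given with the standard error (SE) of limma. The median log2 fold change of the members was -0.36, which is -0.38 relative to the genes of all other chromosomes, and 657 of 798 members (82.3%) were lower, against 49.2% of all 15069 genes tested and 47.4% of those on other chromosomes. The interquartile range of the fold changes was 0.42 on chromosome 9 and 0.44 on the other chromosomes. Chromosome 4 (926 genes) had a shift of -0.42, with levels of -0.09, 0.39 and 0.34 in the IgG tumors and -0.17, -0.23 and -0.25 in the anti-PD-1 tumors. Chromosome 15 (630 genes) had a shift of 0.15 that came with anti-PD-1 replicate 3, at 0.35. The 16 remaining autosomes had shifts between -0.07 and 0.06. Single tumors departed further there, with a level of -0.30 in anti-PD-1 replicate 2 on chromosome 8, where the tumors were 0.45 apart, and 0.22 in IgG replicate 3 on chromosome 2, where they were 0.30 apart. The shift of chromosome 9 was -0.54 without IgG replicate 1, -0.30 without IgG replicate 2 and -0.29 without IgG replicate 3.

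With limma on log2(FPKM + 1), 133 of 798 members (16.7%) were lower in anti-PD-1 tumors at an unadjusted p under 0.05 and at least 1.5-fold, both of which are meant by "past both thresholds". Over all 15069 genes tested, 4.55% were called in that direction. Only 14 members (1.75%) were higher past both thresholds, against 3.90% of all genes tested. Every anti-PD-1 tumor lay below every IgG tumor in 173 members (21.7%), against 8.99% of all genes tested, and above in 21 members (2.63%), against 9.10%. On chromosome 4, 22.6% of 926 genes were lower past both thresholds, and in 30.6% every anti-PD-1 tumor lay below every IgG tumor. Over 12218 genes on autosomes other than 4, 9 and 15, these 2 shares were 2.55% and 6.87%. No member had an adjusted p under 0.05 in limma (0% of all genes tested), 186 members and 1848 of all genes tested had an unadjusted p under 0.05, and limma voom on recovered reads also gave 0 members. The count of 133 was 286 without IgG replicate 1, 50 without IgG replicate 2, 66 without IgG replicate 3, 62 without anti-PD-1 replicate 2 and 50 without anti-PD-1 replicate 3. Of the 133, 29 stayed past both thresholds with each of the 6 tumors left out in turn, and of the 14 that were higher 3 did. Among the genes named below these were Casp1, Casp4, Casp12, Ets1, Fam83b, Lysmd2, Mrps22, Nck1, Sesn3 and Tmprss13, which were lower, and Tmprss4 and Gm24270, which were higher. Every other single gene called below lost its call without at least 1 tumor. Of 60 members named by rule that were not past both thresholds, the fold change of 48 moved by over 1.5 times or changed sign with 1 tumor left out, and of 49 that were past them, 10 did.

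Along the chromosome, 4 of the 6 tumors kept the sign of their level in every window of 10 Mb. In 13 windows of 10 Mb, holding 22 to 125 members each, the median log2 fold change was below 0 in every window, from -0.59 at the start to -0.26 between 100 and 110 Mb. IgG replicate 2 was above 0 in 13 of 13 windows (0.28 to 0.72) and IgG replicate 3 in 13 of 13 (0.21 to 0.42). Anti-PD-1 replicate 2 was below 0 in 13 of 13 windows (-0.42 to -0.22), and so was anti-PD-1 replicate 3 (-0.42 to -0.18). IgG replicate 1 lay between -0.16 and 0.01 and anti-PD-1 replicate 1 between -0.21 and 0.03, with 1 and 2 windows above 0. In 25 windows of 5 Mb the median fold change was again below 0 in all, between -0.62 and -0.23. At that width anti-PD-1 replicate 3 was above 0 in 1 window, 15 to 20 Mb, at 0.02, anti-PD-1 replicate 1 in 4 windows and IgG replicate 1 in 1 window.

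**Figure D2:**
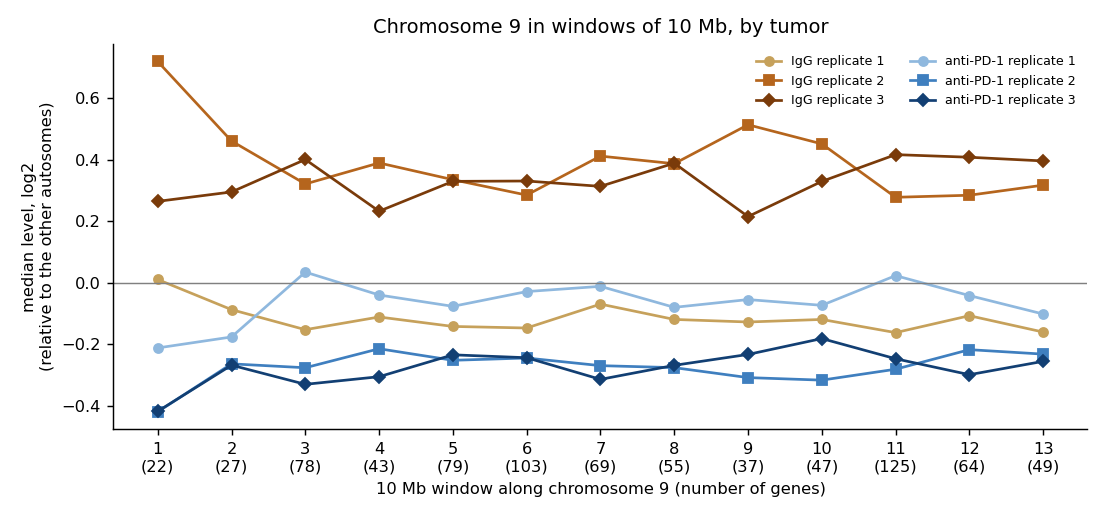
The x axis gives 13 consecutive windows of 10 Mb along chromosome 9 with the number of members in each, and the y axis the median level of these members in each tumor, on a log2 scale relative to the other autosomes. The lines of IgG replicates 2 and 3 stay above 0.2 and those of anti-PD-1 replicates 2 and 3 below -0.18 throughout.

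The first 10 Mb had the lowest median. Its 22 members had a level of 0.72 in IgG replicate 2 against 0.26 in IgG replicate 3. Of the 22 members, 10 were lower past both thresholds, the caspase genes Casp1, Casp4 and Casp12 among them, and 1 was higher, the matrix metalloproteinase gene Mmp3. Over all members 16.7% were lower past both thresholds, and over all genes tested 4.55%. The members at or above the median of the other chromosomes, called outside the shift here, made up between 4.55% of a window (0 to 10 Mb) and 23.4% (90 to 100 Mb). Every window held at least 1 of them.

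The measured shift depended on the level of the gene and on the scale. Members were set against genes of other chromosomes in the same range of mean FPKM. With 1 added before taking the log, the medians differed by -0.20 between 0.5 and 1 FPKM, -0.21 between 1 and 2, -0.37 between 2 and 5, -0.41 between 5 and 10, -0.48 between 10 and 20, -0.46 between 20 and 50 and -0.60 between 50 and 100 FPKM (20 members). With 0.1 added, which compresses low values less, the same 7 differences were -0.40, -0.35, -0.48, -0.46, -0.50, -0.47 and -0.61. With limma voom on recovered reads they were -0.49, -0.39, -0.50, -0.46, -0.52, -0.48 and -0.61. The difference between low and high ranges was thus smaller on the last 2 scales. Above 100 FPKM (18 members) the difference with 1 added was -0.37, and 38.9% of those members lay outside the shift, against 8.26% between 10 and 20 FPKM and 33.0% between 0.5 and 1 FPKM. For the 209 members with at least 10 FPKM the levels were -0.16, 0.45 and 0.40 in the IgG tumors and -0.04, -0.34 and -0.36 in the anti-PD-1 tumors, a range of 0.82 or 1.76-fold.

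Of 684 protein-coding members, 584 (85.4%) were lower, with a median log2 fold change of -0.38. Of 23 antisense RNAs 20 (87.0%) were lower, with a median of -0.39, and of 18 genes of the annotation class TEC, transcripts that still await experimental proof, 16 (88.9%), with a median of -0.32. Of 21 processed pseudogenes, copies of spliced RNAs whose reads can come from parent genes elsewhere, 11 (52.4%) were lower and 10 lay outside the shift. The 10 miRNA genes, 8 snoRNA genes and 4 snRNA genes were lower in 5, 3 and 1 cases. Short RNAs inside introns cannot be separated from their host genes in these files, since the strandedness of the counting is not given in the sources used here.

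Of the 8 members with the highest mean FPKM, 5 encode parts of the translation machinery, and the other 3 were Gm24270, Pkm and Trf, described below. Eef1a1, the elongation factor that brings aminoacyl-tRNA to the ribosome, had 1815, 3009.7 and 2769.7 FPKM in the IgG tumors and 2049, 1770.3 and 1946 FPKM in the anti-PD-1 tumors. Rplp1, an acidic protein of the ribosomal stalk, had 2106, 2599.6 and 1868 FPKM in the IgG tumors and 1668, 1272 and 1301 FPKM in the anti-PD-1 tumors. Rpl4, a protein of the large subunit, had 507, 746 and 631 FPKM in the IgG tumors and 488, 378 and 397 FPKM in the anti-PD-1 tumors. In Rplp1 and Rpl4 all anti-PD-1 tumors lay below all IgG tumors, and in Eef1a1 IgG replicate 1 lay among the anti-PD-1 tumors. The log2 fold changes were -0.36 ± 0.29 (SE) for Eef1a1, -0.62 ± 0.27 (SE) for Rplp1 and -0.56 ± 0.23 (SE) for Rpl4. With 1 tumor left out that of Eef1a1 ran from -0.58 to -0.22. Rpsa, a small-subunit protein also known as the laminin receptor, and Rpl14 had -0.54 and -0.26, the latter between -0.45 and -0.10 with 1 tumor left out. Of the 14 ribosome and translation genes listed, 13 (92.9%) were lower, with a median of -0.40, and Rplp1, Rps25 and Mrps22 (21.4%) were lower past both thresholds. Those shares stand beside 82.3% of all members lower and 16.7% called, and beside 49.2% and 4.55% of all genes tested. Lars2, the mitochondrial leucyl-tRNA synthetase, had 0.16 ± 0.25 (SE), which was -0.02 without IgG replicate 2. Genes of this class have many processed pseudogenes, and reads shared with these copies could not be separated.

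The 8 lowest fold changes among protein-coding members of at least 10 FPKM included those of 3 inflammatory caspases, proteases that act in pyroptosis and the processing of interleukins. Casp4 (ENSMUSG00000033538, chr9:5308828-5336783), known as caspase-11 in older literature, had 11.5, 26.2 and 15.8 FPKM in the IgG tumors and 5.72, 4.75 and 3.64 FPKM in the anti-PD-1 tumors. Casp1 (ENSMUSG00000025888, chr9:5298517-5307265), the caspase of the inflammasome, had 72.1, 149 and 100.4 FPKM in the IgG tumors and 46.7, 50.8 and 41.8 FPKM in the anti-PD-1 tumors. Casp12, its neighbour, had 39.9, 102 and 37.4 FPKM in the IgG tumors and 23.7, 22.4 and 19.9 FPKM in the anti-PD-1 tumors. In all 3 the groups did not overlap and IgG replicate 2 was the highest tumor. On the log2 scale the differences were -1.66 ± 0.30 (SE), -1.13 ± 0.27 (SE) and -1.25 ± 0.37 (SE), with a range of -1.92 to -1.35 for Casp4 over the alternatives tried. Without IgG replicate 2 the difference of Casp12 was -0.79.

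The other 5 of these 8 genes were Lysmd2, Tmprss13, Car12, Ltf and Plet1. Tmprss13, a membrane serine protease, had 13.7, 28.8 and 27.0 FPKM in the IgG tumors and 8.05, 8.23 and 6.59 FPKM in the anti-PD-1 tumors. Car12, a carbonic anhydrase on the cell surface of luminal cells, had 17.4, 35.8 and 88.5 FPKM in the IgG tumors and 14.6, 11.8 and 15.5 FPKM in the anti-PD-1 tumors. Plet1, a surface protein of placental and epithelial progenitor cells, had 134, 413 and 314 FPKM in the IgG tumors and 138, 138 and 85.2 FPKM in the anti-PD-1 tumors. The groups did not overlap in Tmprss13 and Car12, IgG replicate 3 set the IgG mean of Car12, and in Plet1 IgG replicate 1 lay within the anti-PD-1 tumors. Their log2 fold changes were -1.42 ± 0.28 (SE), -1.40 ± 0.52 (SE) and -1.13 ± 0.43 (SE), and that of Car12 was -0.80 without IgG replicate 3. Lysmd2, a LysM domain protein, had -1.51 ± 0.39 (SE). Ltf, the lactoferrin gene of milk and neutrophil granules, had 56.8, 953 and 19.8 FPKM in the IgG tumors and 56.4, 116 and 14.3 FPKM in the anti-PD-1 tumors. Its value rested on IgG replicate 2, and its log2 fold change of -1.16 ± 1.39 (SE) ran from -2.32 to 0.44 over the alternatives.

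The likeness of a gene to its chromosome was given by Pearson's r over the 6 tumors between its log2 values and the median profile of the other members, as a description. Of 204 protein-coding members with at least 10 FPKM, 115 (56.4%) had r above 0.8, against 7.21% of 4770 such genes elsewhere, and the median r was 0.837 against -0.26. The 5 most alike were Bcl9l (r = 0.996), a cofactor of beta-catenin, Ddx6, an RNA helicase of processing bodies, Ubp1, a transcription factor, Clpx, a mitochondrial protease subunit, and Dusp7, a phosphatase of ERK. Bcl9l (ENSMUSG00000063382, chr9:44482825-44511896) had 10.9, 27.1 and 24.7 FPKM in the IgG tumors and 12.5, 9.22 and 8.57 FPKM in the anti-PD-1 tumors. Dusp7 had 18.7, 35.5 and 38.0 FPKM in the IgG tumors and 19.3, 12.7 and 11.3 FPKM in the anti-PD-1 tumors. Ddx6 had 40.5, 62.7 and 66.5 FPKM in the IgG tumors and 41.9, 34.1 and 31.2 FPKM in the anti-PD-1 tumors. In these 3 the anti-PD-1 replicate 1 value lay above that of IgG replicate 1, as in the chromosome as a whole, and IgG replicates 2 and 3 were the highest. Fold changes on the log2 scale came to -0.89 ± 0.34 (SE), -1.01 ± 0.31 (SE) and -0.62 ± 0.23 (SE). Over the 204 genes the median ratio of group means was 0.730, a difference of -27.0%.

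Of these 204 genes, 180 were lower and 23 lay outside the shift. The list of glycolysis and redox genes, 6 of whose 11 members lay outside the shift at any level, was the only list of 19 with a median above 0. Me1 (ENSMUSG00000032418, chr9:86581371-86695953), malic enzyme, which makes NADPH for lipid synthesis, had 93.6, 58.1 and 69.8 FPKM in the IgG tumors and 103, 105 and 115 FPKM in the anti-PD-1 tumors. Hexa (ENSMUSG00000025232, chr9:59539540-59565109), the alpha subunit of lysosomal beta-hexosaminidase, had 32.2, 21.5 and 24.1 FPKM in the IgG tumors and 42.7, 36.2 and 45.6 FPKM in the anti-PD-1 tumors. In both, all anti-PD-1 tumors lay above all IgG tumors and IgG replicates 2 and 3 were the lowest, the reverse of the chromosome, with r of -0.943 and -0.875. The log2 fold changes were 0.57 ± 0.21 (SE) and 0.68 ± 0.19 (SE), and Hexa but not Me1 was higher past both thresholds. Gpx1, a glutathione peroxidase, had 199, 240.2 and 186 FPKM in the IgG tumors and 267, 256 and 252 FPKM in the anti-PD-1 tumors, without overlap, and a log2 fold change of 0.32 ± 0.18 (SE). Pkm, the pyruvate kinase of glycolysis, had 268, 273 and 341 FPKM in the IgG tumors and 326, 254 and 417 FPKM in the anti-PD-1 tumors, with a log2 fold change of 0.16 ± 0.24 (SE) that was -0.02 without anti-PD-1 replicate 3. Gsta4, a glutathione transferase, had the highest fold change of the 23, 0.77 ± 0.54 (SE), which came with 35.7 FPKM in anti-PD-1 replicate 2 and was 0.22 without that tumor. The mitochondrial genes Cox5a, of cytochrome oxidase, and Idh3a, of the citric acid cycle, had 0.26 and 0.29.

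Other members outside the shift had different roles. Hspa8, the constitutive HSP70 chaperone, had 269.6, 255 and 161 FPKM in the IgG tumors and 237, 299.8 and 322 FPKM in the anti-PD-1 tumors, with a log2 fold change of 0.35 ± 0.25 (SE) and r of -0.783. Trf, the transferrin gene, which is also expressed in lactating epithelium, had 288, 303 and 242 FPKM in the IgG tumors and 278, 268 and 409 FPKM in the anti-PD-1 tumors, with a log2 fold change of 0.18 ± 0.23 (SE). Ctnnb1 (ENSMUSG00000006932, chr9:120929216-120960507), which encodes beta-catenin, had 144, 119 and 121 FPKM in the IgG tumors and 137, 167 and 127 FPKM in the anti-PD-1 tumors, with a log2 fold change of 0.17 ± 0.18 (SE). In Hspa8, Trf and Ctnnb1 the groups overlapped, and with 1 tumor left out the fold changes ran from 0.12 to 0.49, -0.01 to 0.29 and 0.05 to 0.25. Crtap, a collagen prolyl hydroxylation cofactor, had 20.2, 17.2 and 20.9 FPKM in the IgG tumors and 30.6, 24.7 and 22.8 FPKM in the anti-PD-1 tumors, without overlap. Cilp, a cartilage matrix protein, had 0.38 ± 0.39 (SE), and Ano10, a member of the anoctamin family, 0.32 ± 0.21 (SE), with 0.11 to 0.81 and 0.17 to 0.51 when 1 tumor was left out. Eif3g, Prkcsh, Pml, Snx22, Cib2, Lars2, Plscr2 and Dcps also belonged to the 23. Introns of Hspa8 hold snoRNA genes whose reads cannot be told apart from its own.

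**Figure D3:**
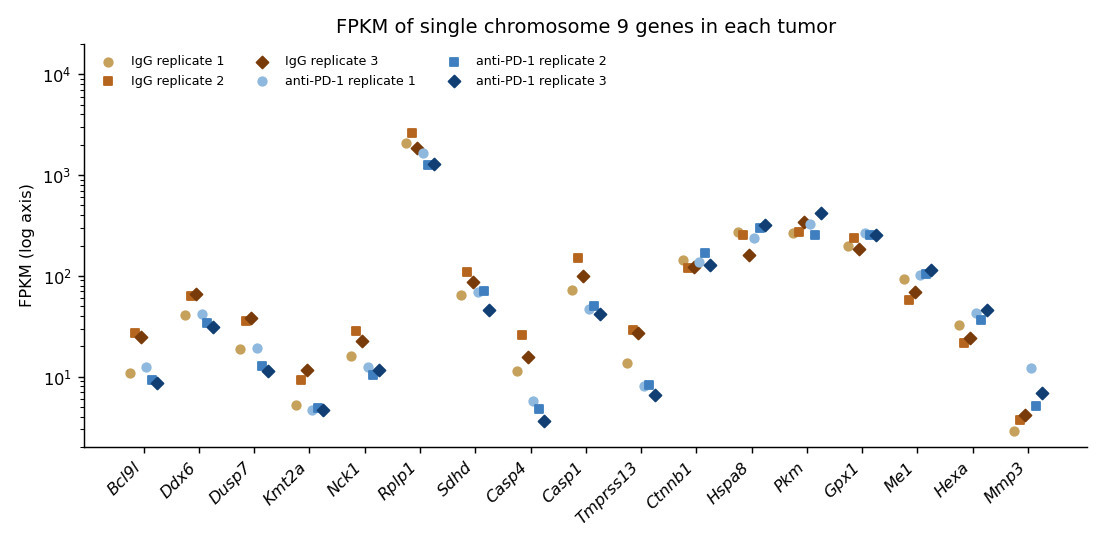
FPKM of 17 chromosome 9 genes in each of the 6 tumors, on a log axis. From Bcl9l to Tmprss13 the points of IgG replicates 2 and 3 tend to lie on top, and from Ctnnb1 to Mmp3 they do not, with Me1 and Hexa lowest in those 2 tumors.

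Among the 14 members that were higher past both thresholds, 8 were protein-coding. The membrane protease Tmprss4 (ENSMUSG00000032091, chr9:45172726-45204092), which lies close to Tmprss13, had 2.07, 1.13 and 0.696 FPKM in the IgG tumors and 3.20, 10.3 and 6.15 FPKM in the anti-PD-1 tumors, a log2 fold change of 1.65 ± 0.39 (SE). The groups did not overlap in either protease gene, and their fold changes were of opposite sign. Mmp3 (ENSMUSG00000043613, chr9:7445822-7455975), stromelysin, which the study names among the genes it followed, had 2.90, 3.72 and 4.12 FPKM in the IgG tumors and 12.1, 5.15 and 6.83 FPKM in the anti-PD-1 tumors, a log2 fold change of 0.92 ± 0.29 (SE). Clec3b, which encodes the plasminogen-binding protein tetranectin, had 2.43, 3.44 and 6.32 FPKM in the IgG tumors and 18.9, 4.61 and 9.68 FPKM in the anti-PD-1 tumors. Anti-PD-1 replicate 1 was the highest tumor for Mmp3 and Clec3b, and the groups overlapped for Clec3b, at 1.14 ± 0.48 (SE). Without that tumor the log2 fold changes were 0.61 for Mmp3 and 0.69 for Clec3b. It was also the tumor with the highest sum of fibroblast markers, 345 FPKM, whose part in these values was not tested. Mpzl2, an epithelial adhesion protein, and Higd1a, a mitochondrial protein of the hypoxia response, had 0.70 ± 0.23 (SE) and 0.61 ± 0.22 (SE), both without overlap. The remaining protein-coding genes were Hexa, St3gal4 and Cspg5. Gm24270, annotated as a miRNA gene of 57 bases inside Peak1, had 326, 306 and 277 FPKM in the IgG tumors and 517, 493 and 476 FPKM in the anti-PD-1 tumors, the highest level of the 14. FPKM divides by this short length, and reads from Peak1 cannot be told apart from its own.

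Of 31 tumor suppressors listed, 29 were members, 25 were lower, and 5 (17.2%) were lower past both thresholds, with a median of -0.38. That share is close to the 16.7% of all members and above the 4.55% of all genes tested, and the shares of the lists below are to be read beside the same 2 values. Atm (ENSMUSG00000034218, chr9:53439149-53536740), the kinase that senses DNA double-strand breaks, had 2.17, 3.67 and 5.94 FPKM in the IgG tumors and 2.37, 1.68 and 1.49 FPKM in the anti-PD-1 tumors. Cul5, a scaffold of ubiquitin ligases, had 4.65, 8.75 and 7.23 FPKM in the IgG tumors and 4.76, 2.37 and 2.80 FPKM in the anti-PD-1 tumors. Sesn3, a stress-induced inhibitor of mTORC1, had 5.25, 11.5 and 10.6 FPKM in the IgG tumors and 4.86, 3.12 and 2.99 FPKM in the anti-PD-1 tumors. Sesn3 had no overlap between groups, whereas IgG replicate 1 lay under anti-PD-1 replicate 1 for Atm and Cul5. In log2 terms the differences were -0.73 ± 0.30 (SE), -0.87 ± 0.28 (SE) and -1.07 ± 0.30 (SE), and that of Atm was -0.44 without IgG replicate 3. Setd2, the histone H3 methyltransferase, and Rbm5, a splicing factor, were the other 2, at -0.62 ± 0.21 (SE) and -0.72 ± 0.25 (SE). Smarca4, the BRG1 ATPase of SWI/SNF, had -0.34 ± 0.26 (SE), Tgfbr2 had -0.30 ± 0.22 (SE), and Sdhd, a subunit of succinate dehydrogenase, had -0.48 ± 0.26 (SE), all with overlap. With 1 tumor left out these ran from -0.54 to -0.13, -0.43 to -0.12 and -0.67 to -0.27.

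Of 18 DNA damage genes listed, 16 were members, 14 were lower and 2 (Atm and Rad54l2, 12.5% of the list's members) were lower past both thresholds, with a median of -0.34. The list's level was -0.11, 0.32 and 0.36 in the IgG tumors and -0.04, -0.13 and -0.34 in the anti-PD-1 tumors. Rad54l2, a SNF2-type helicase, had 2.19, 3.35 and 4.55 FPKM in the IgG tumors and 2.22, 1.47 and 1.75 FPKM in the anti-PD-1 tumors. H2afx, the histone variant phosphorylated at DNA breaks, had 17.5, 16.0 and 27.8 FPKM in the IgG tumors and 23.0, 19.5 and 12.1 FPKM in the anti-PD-1 tumors, with overlap and a log2 fold change of -0.16 ± 0.29 (SE). The range of H2afx over the alternatives, -0.34 to 0.09, included 0.

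Of 33 oncogenes and growth signaling genes, 29 were members, 28 were lower and 9 (31.0%) were lower past both thresholds, with a median of -0.46. Whether this list differs from the tumor suppressors was not tested. The 9 were Birc2, Ets1, Kmt2a, Bcl9l, Maml2, Nck1, Tcf12, Ddx6 and St14. Ets1, a transcription factor, had 6.59, 9.01 and 5.61 FPKM in the IgG tumors and 3.58, 3.47 and 2.84 FPKM in the anti-PD-1 tumors. Nck1, an adaptor that links receptor tyrosine kinases to actin, had 16.1, 28.2 and 22.5 FPKM in the IgG tumors and 12.5, 10.4 and 11.6 FPKM in the anti-PD-1 tumors. St14, the membrane protease matriptase, had 25.0, 57.2 and 42.1 FPKM in the IgG tumors and 30.5, 19.2 and 15.4 FPKM in the anti-PD-1 tumors. Ets1 and Nck1 did not overlap between groups and St14 did, through anti-PD-1 replicate 1. Fold changes (log2) were -0.89 ± 0.20 (SE), -0.86 ± 0.22 (SE) and -0.88 ± 0.35 (SE). Birc2, an inhibitor of apoptosis that marks proteins with ubiquitin, had -0.61 ± 0.23 (SE) and the Notch coactivator Maml2 -0.77 ± 0.27 (SE) (-0.51 without IgG replicate 2), both without overlap. Ctnnb1 was the only member of the list that was higher.

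Dosage-sensitive genes were listed because loss of 1 copy is known to have a phenotype in mouse or human. Of 24 listed, 22 were members, 20 were lower (90.9%, beside 82.3% of all members) and 5 (Kmt2a, Setd2, Tcf12, Syncrip and Ets1) were lower past both thresholds, with a median of -0.44 beside -0.36 for all members. The list's level was -0.13, 0.45 and 0.43 in the IgG tumors and 0.03, -0.31 and -0.37 in the anti-PD-1 tumors. Kmt2a (ENSMUSG00000002028, chr9:44803355-44881296), the MLL1 methyltransferase, had 5.25, 9.24 and 11.8 FPKM in the IgG tumors and 4.65, 4.84 and 4.66 FPKM in the anti-PD-1 tumors. Syncrip, an RNA-binding protein, had 8.30, 16.4 and 12.5 FPKM in the IgG tumors and 8.92, 6.87 and 5.46 FPKM in the anti-PD-1 tumors. Tcf12, a basic helix-loop-helix factor, had 5.50, 8.86 and 7.28 FPKM in the IgG tumors and 5.01, 3.94 and 3.28 FPKM in the anti-PD-1 tumors. Kmt2a and Tcf12 were without overlap, and Kmt2a was nearly level in the 3 anti-PD-1 tumors. The log2 fold changes were -0.71 ± 0.26 (SE), -0.70 ± 0.27 (SE) and -0.68 ± 0.22 (SE). Ctnnb1 was among the 2 that were higher. The lists share genes, so their counts are not separate observations.

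All 27 chromatin and transcription regulators were members and all 27 were lower, with a median of -0.45 and fold changes from -0.72 to -0.22. They were lower past both thresholds in 6 cases (Kmt2a, Setd2, Msl2, Morf4l1, Rbm5 and Tcf12), and in 11 every anti-PD-1 tumor lay below every IgG tumor, beside 21.7% of all members and 8.99% of all genes tested. Morf4l1, a subunit of histone acetyltransferase complexes, had 13.2, 24.9 and 22.5 FPKM in the IgG tumors and 14.1, 10.9 and 12.1 FPKM in the anti-PD-1 tumors. Dnmt1, the maintenance DNA methyltransferase, had 11.6, 15.6 and 23.2 FPKM in the IgG tumors and 13.4, 13.3 and 10.1 FPKM in the anti-PD-1 tumors, with overlap and a log2 fold change of -0.38 ± 0.26 (SE) that ran from -0.60 to -0.13 with 1 tumor left out. The list's levels of -0.15, 0.50 and 0.51 in the IgG tumors and -0.12, -0.21 and -0.36 in the anti-PD-1 tumors show the chromosome's order of tumors with IgG replicate 1 just under anti-PD-1 replicate 1.

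Of 21 mitosis and replication genes, 18 were lower (85.7%), with a median of -0.25, and Tfdp2, a partner of E2F factors, and Clasp2, a microtubule-binding protein, were lower past both thresholds. Ccnb2, cyclin B2, had 15.3, 13.2 and 27.8 FPKM in the IgG tumors and 19.9, 14.2 and 8.03 FPKM in the anti-PD-1 tumors. Anapc13, of the anaphase-promoting complex, had 9.81, 13.4 and 12.9 FPKM in the IgG tumors and 9.55, 6.73 and 8.87 FPKM in the anti-PD-1 tumors. Anapc13 was without overlap, at -0.47 ± 0.19 (SE), and Ccnb2 was not, at -0.40 ± 0.37 (SE) and between -0.68 and -0.07 with 1 tumor left out. Of 17 Wnt and TGF-beta signaling members (18 listed), 14 were lower, with a median of -0.31, and Bcl9l and Dixdc1, a positive regulator of Wnt signaling, were lower past both thresholds. Dixdc1 had 6.10, 8.03 and 15.3 FPKM in the IgG tumors and 5.07, 4.54 and 5.85 FPKM in the anti-PD-1 tumors, a log2 fold change of -0.72 ± 0.30 (SE) that was -0.38 without IgG replicate 3. Smad3, a TGF-beta effector, had -0.02 ± 0.27 (SE), and the Wnt co-receptor Ryk -0.58 ± 0.31 (SE), both with overlap, and the value of Smad3 changed sign with 1 tumor left out (-0.22 to 0.26).

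Of 21 mitochondrial energy genes 19 were lower, with a median of -0.43. Cox7a2, of cytochrome oxidase, had 113, 152 and 107 FPKM in the IgG tumors and 88.8, 78.4 and 70.9 FPKM in the anti-PD-1 tumors, and Fdx1, a ferredoxin, had -0.63 ± 0.19 (SE), both lower past both thresholds and without overlap, while Higd1a was higher. Acat1, of ketone and isoleucine breakdown, had -0.69 ± 0.30 (SE), and the electron transfer flavoprotein gene Etfa -0.51 ± 0.23 (SE), both with overlap. Of 17 lysosome and protein breakdown genes 16 were lower, with a median of -0.47, among them Ctsh, cathepsin H, with 51.8, 84.8 and 57.3 FPKM in the IgG tumors and 49.7, 37.1 and 38.7 FPKM in the anti-PD-1 tumors and a log2 fold change of -0.59 (-0.38 without IgG replicate 2), and the ubiquitin ligase gene Ube4a at -0.77 ± 0.25 (SE). Hexa was the exception. Of 21 chaperone and secretory pathway genes 19 were lower, with a median of -0.19 and 1 past both thresholds, Rab8b, a vesicle GTPase, at -0.59 ± 0.22 (SE). Of 13 sterol and lipid genes 6 were members and 5 of these were lower, with none past both thresholds.

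Apoptosis genes had the lowest median of the 19 lists, -0.49, with 14 of 14 members (15 listed) lower and 5 past both thresholds (Birc2, Casp1, Casp4, Casp12 and Endod1). The list's level in IgG replicate 2, 0.84, was above that in IgG replicate 3, 0.16. Casp1, Casp4 and Casp12 lie in the first 10 Mb, whose 22 members had a median of -0.59 and levels of 0.72 and 0.26 in these 2 tumors. The part of position in the values of this list was not tested. The list holds both caspases and inhibitors of apoptosis such as Birc2. Inflammation signaling genes shared the 3 caspases, with 14 of 16 lower, 5 past both thresholds and a median of -0.26. The other 2 were Ctsh and Tyk2, a kinase of cytokine receptors, with 5.21, 7.63 and 8.68 FPKM in the IgG tumors and 5.16, 3.96 and 3.85 FPKM in the anti-PD-1 tumors. Of 17 epithelial members (22 listed), 13 were lower, with a median of -0.43. St14, Car12, Tmprss13 and Fam83b were lower past both thresholds and Tmprss4 and Mpzl2 higher. Fam83b, a signaling scaffold, had 3.54, 7.83 and 8.59 FPKM in the IgG tumors and 2.24, 2.82 and 2.20 FPKM in the anti-PD-1 tumors, without overlap.

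Of 28 immune cell genes 14 were members, 10 were lower and none passed both thresholds, with a median of -0.07. The list's level was -0.16, 0.61 and -0.33 in the IgG tumors and -0.09, -0.26 and 0.10 in the anti-PD-1 tumors. Cx3cr1, a chemokine receptor of macrophages, had 5.09, 10.5 and 8.60 FPKM in the IgG tumors and 5.81, 4.44 and 9.30 FPKM in the anti-PD-1 tumors, with a log2 fold change of -0.27 ± 0.32 (SE) that ran from -0.53 to -0.06 with 1 tumor left out. Of 19 matrix members (29 listed), 10 were lower, Thsd4 past both thresholds, and Mmp3 and Clec3b were higher past both. Its median fold change was -0.10, while the difference of the group means of its tumor levels was 0.11, so the sign depends on the summary. The list's level was highest in anti-PD-1 replicate 1, at 0.38, and lowest in anti-PD-1 replicate 2, at -0.39, and the fibroblast markers summed to 345 and 93.6 FPKM in these tumors. Lamb2, a laminin chain of basement membranes, had 24.2, 37.8 and 47.5 FPKM in the IgG tumors and 28.9, 20.1 and 22.7 FPKM in the anti-PD-1 tumors. Thsd4, a microfibril protein, had 3.10, 8.02 and 2.40 FPKM in the IgG tumors and 1.37, 1.71 and 1.37 FPKM in the anti-PD-1 tumors. The groups overlapped for Lamb2, at -0.55 ± 0.27 (SE) and between -0.81 and -0.34 with 1 tumor left out, and IgG replicate 2 set the IgG mean of Thsd4, whose log2 fold change of -1.01 ± 0.36 (SE) was -0.59 without it. Of 9 smooth muscle and vessel members, 7 were lower and none passed both thresholds, with a median of -0.21. The 11 glycolysis and redox genes had 5 lower and 6 higher and none past both thresholds. Their median was 0.13, while the difference of the group means of their tumor levels was -0.05, so here too the sign depends on the summary.

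**Figure D4:**
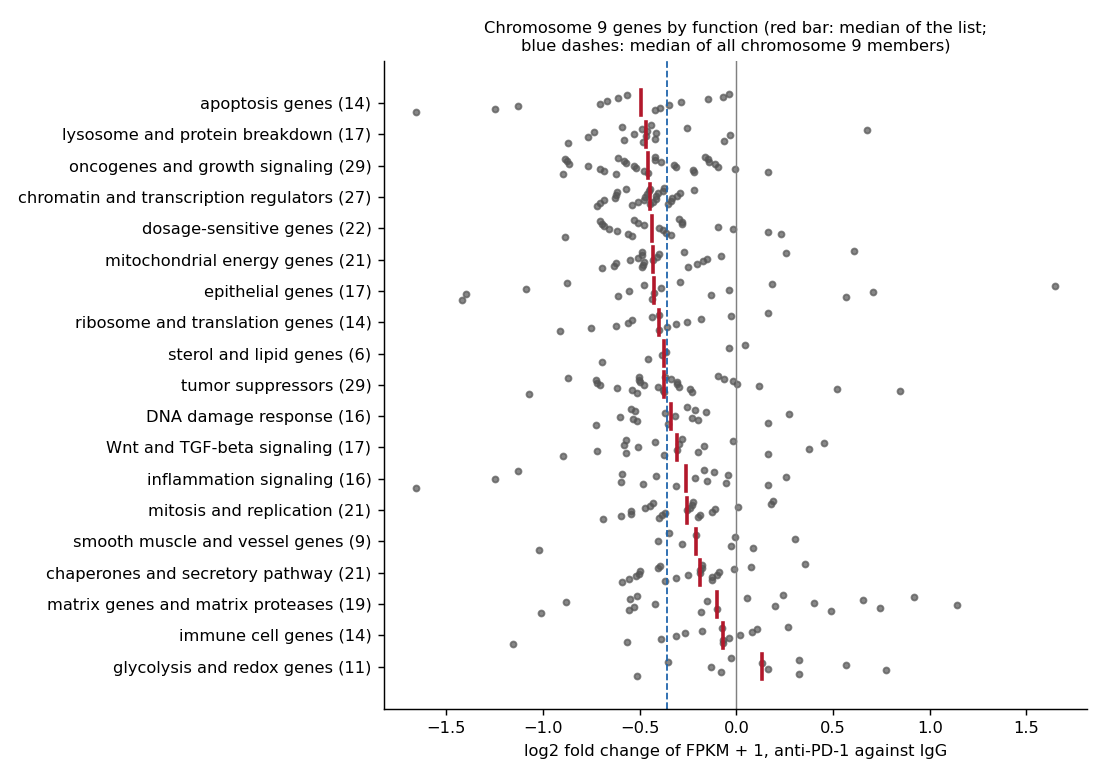
Each point is the log2 fold change (anti-PD-1 against IgG) of 1 chromosome 9 member, grouped by the list it belongs to, with the number of members in parentheses, the median of each list as a red bar and the median of all 798 members, -0.36, as a dashed line. The medians run from -0.49 for apoptosis genes to 0.13 for glycolysis and redox genes.

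Genes of related function on other chromosomes were set beside members in 39 pairs, of which 38 were used, because the partner of Tgfbr2, Tgfbr1, lies on chromosome 4. The chromosome 9 gene had the lower fold change in 33 of 38 pairs, with medians of -0.39 for the chromosome 9 genes and 0.06 for the partners. Of the 38, 33 chromosome 9 genes but 14 partners were below 0, beside 82.3% of all members and 47.4% of tested genes on other chromosomes. The pairs of Nck1, Bcl9l and Sdhd, given next, were among those furthest apart, with differences of -1.11, -1.04 and -0.90. Nck2, the paralog of Nck1 on chromosome 1, had 55.0, 45.4 and 43.5 FPKM in the IgG tumors and 58.7, 51.5 and 60.3 FPKM in the anti-PD-1 tumors, a log2 fold change of 0.25 beside -0.86 for Nck1. Bcl9, the paralog of Bcl9l on chromosome 3, had 8.52, 6.13 and 8.44 FPKM in the IgG tumors and 6.79, 9.85 and 9.09 FPKM in the anti-PD-1 tumors, a log2 fold change of 0.14 beside -0.89. Sdhc, another subunit of the complex of Sdhd, on chromosome 1, had 33.6, 27.3 and 32.6 FPKM in the IgG tumors and 46.7, 45.7 and 33.9 FPKM in the anti-PD-1 tumors, a log2 fold change of 0.42 beside -0.48. IgG replicates 2 and 3 were the 2 highest tumors for 3 of the 38 partners, Smarca2, Wwtr1 and Elovl6, and for none of Nck2, Bcl9 and Sdhc. Over all tested genes on other chromosomes this held for 12.5%. The 5 pairs in which the chromosome 9 gene was not below its partner were Ctnnb1 with Jup, Yap1 with Wwtr1, Hspa8 with Hspa5, Me1 with Me2 and Elovl5 with Elovl6. Yap1 and Wwtr1, the paired effectors of Hippo signaling, had -0.42 and -0.43. The pairs were chosen by function with the shift of the chromosome known, so these counts are a description with no test.

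**Figure D5:**
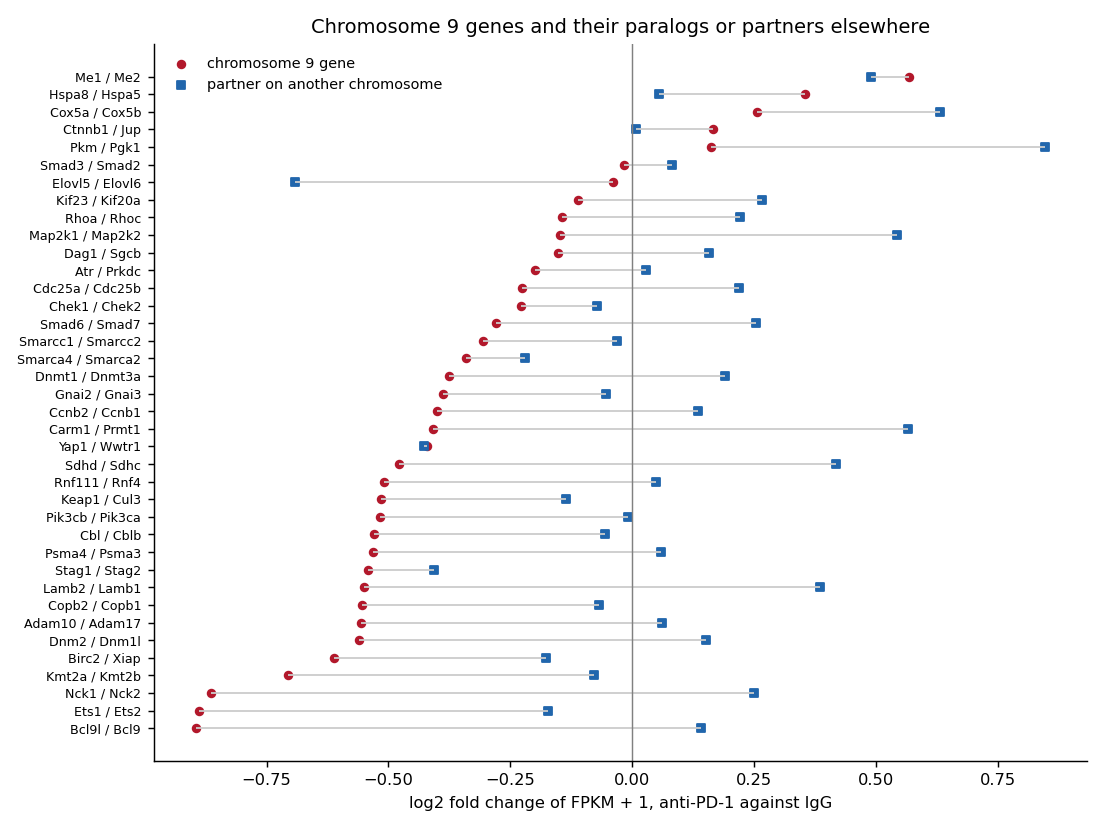
Each row is a pair of genes, with the log2 fold change (anti-PD-1 against IgG) of the chromosome 9 gene as a circle and that of its partner on another chromosome as a square. The circle lies left of the square in 33 of the 38 pairs.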

How the data were processed

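Per the labels, the authors trimmed reads with Cutadapt 3.5 and used RSEM 1.3.1, Bowtie2 2.4.1 and DESeq2 1.36.0 on mm10, and deposited 1 FPKM per tumor for each of 54532 Ensembl IDs. The tool that made the FPKM is not given in the sources used here. Values were scaled by median-of-ratios factors and put on a log2 scale after adding 1. The 15069 genes averaging 0.5 FPKM or more were fitted with limma 3.58.1 in R 4.3.3 (lmFit, eBayes with trend, two-sided, Benjamini-Hochberg over all 15069). P-values measure only the spread between these 6 tumors, and depth was known only as the size implied by the recovered reads. Python 3.11.15, pandas 2.3.3, numpy 2.4.6 and matplotlib 3.10.9 were used for tables and figures.

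The members, gene lists and pairs were chosen with earlier results of these data known. Named genes were the 8 members of highest mean FPKM, the 8 lowest and 8 highest fold changes and the 5 most and 5 least like the chromosome profile among protein-coding members of at least 10 FPKM, up to 4 genes per list by mean FPKM with those past both thresholds, the pairs, and Mmp3. Other genes named (Cox5a, Idh3a and the rest of the genes outside the shift, St3gal4 and Cspg5) were picked after their values were seen. Some genes that the rule would name, and 1 pair, are not reported here. On simulated reads for 14787 genes, 79% of 200 genes changed by a log2 fold of 2 were recovered with 22 false calls, and a simulated shift of -0.4 came out as -0.29. The alternatives were 0.1 added, no filter, a mean of at least 2 FPKM, FPKM as deposited, quantile normalization, no trend, the replicate number as a block, limma voom on recovered reads, each tumor left out, protein-coding members only, and other reference genes or windows.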

Additional observations from a re-analysis of the deposited data

How the results depend on the processing

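No member had an adjusted p under 0.05 under any alternative, so calls rest on unadjusted p-values. The number of members lower past both thresholds, 133, stayed between 101 and 175 with other scalings, filters, variance models and limma voom on recovered reads, and ran from 50 to 286 with 1 tumor left out (286 without IgG replicate 1, 50 without IgG replicate 2, 66 without IgG replicate 3, 62 without anti-PD-1 replicate 2, 50 without anti-PD-1 replicate 3). The number higher, 14, was 8 among protein-coding members only and ran from 5 to 23 with 1 tumor left out (5 without IgG replicate 2, 23 without anti-PD-1 replicate 2, 9 without anti-PD-1 replicate 3). The shift of -0.38 was -0.54 to -0.29 with 1 tumor left out, -0.48 with 0.1 added, -0.49 with voom and -0.10 with no filter, which takes in 1594 genes, many near 0. The labels give both groups replicate numbers 1 to 3 and do not say whether these pair the tumors. The deviations of same-numbered tumors correlated at -0.16, 0.01 and 0.19 over the tested genes. With 3 tumors per group these values cannot settle whether the numbers pair the tumors. With the replicate block 101 members were lower and 18 higher past both thresholds. Of 109 named members, 95 kept the sign of their fold change under every alternative and 14 did not, Ltf having the largest main fold change of those.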
